A study of Mus musculus with 6 samples.

Results

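The 45 genes described here encode the p53 axis and the machinery of apoptosis: p53 and its inhibitors, p53 target genes, the BCL2 family, caspases, death receptor components and inhibitors of apoptosis. They were selected by symbol from a written list and not by a cut on any measured value, but the list was chosen with earlier results of these data known. All 45 had a row in the 55331 genes of the authors' deposited table. RNA came from whole testes of mice aged 35 days, of a strain given as mixed. The control group is 3 libraries from Ptbp1fl/fl mice, and the Ptbp1_cKO group is 3 libraries from Ptbp1fl/fl; Amh-Cre+/- mice, whose Cre is driven by the anti-Müllerian hormone promoter that is active in Sertoli cells. Both groups thus carry the floxed alleles, neither group has Cre without them, and an effect of the transgene cannot be told apart from that of the deletion. PTBP1 binds RNA and steers alternative splicing, and the series asks what it does in Sertoli cells, which support the germ cells.

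Apoptosis proceeds along a mitochondrial and a death receptor route. In the mitochondrial route, BH3-only proteins relieve BAX and BAK of restraint by pro-survival BCL2 proteins, the outer membrane is opened, and released cytochrome c assembles APAF1 and caspase 9. In the death receptor route, FAS ligand binds FAS, which recruits FADD and caspase 8. p53, held low by MDM2 and MDM4, induces several of these genes and others that arrest the cell cycle. In the testis, many germ cells die by apoptosis in normal development, and dying cells are cleared by Sertoli cells.

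By the authors' deposited table, none of the 42 tested members had a q under 0.05, either as higher or as lower. Of all 22048 tested genes 1.16% did (0.458% higher and 0.703% lower), so 0 among 42 members is near the background. At an unadjusted p under 0.05, 4 of the 42 members (9.52%) were called by Cuffdiff, against 8.98% of all tested genes, so the share among the members was near the background. Of these 4, Sesn2, Casp12 and Eda2r had a higher value in Ptbp1_cKO, beside 4.38% of all tested genes, and Fasl a lower one, beside 4.59%. With a p computed from the deposited statistic under a normal distribution and adjusted over all genes, 0 members passed, against 0.0863% of genes. The labels do not say that each library is from a separate animal, so p-values measure only the spread between these libraries, which may be technical. The table holds 1 FPKM value (fragments scaled by transcript length and library depth) for each group and none for a single library, so values are given as the authors' group values without SD, and whether libraries overlap between groups is not known. The steps between low FPKM values put 1 FPKM over 1 kb of effective length at about 226.0 fragments in control and 203.9 in Ptbp1_cKO, summed over a group's libraries.

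The targeted gene, Ptbp1, stood at 49.97 FPKM in control and 46.66 FPKM in Ptbp1_cKO (q = 0.999 per the authors' deposited table), a value of the whole gene in a tissue with many cells that lack Cre, so it does not check the labels. Markers of cell types showed that the testis as a whole was not uniform between groups. Sertoli markers were present, with 0 of 14 listed at 0, a summed level of 1729 and 2014 FPKM, and 12 of 14 higher in Ptbp1_cKO. Without Clu, a secreted chaperone, the other 13 summed to 875.1 and 815.5 FPKM, so that the sum turned direction on 1 gene. Of these 13, however, 11 were still higher. The 2 lower ones were the abundant Ctsl, at 396.6 and 322.5 FPKM, and Cst12, at 146.6 and 128.7 FPKM. All 11 macrophage and leukocyte markers were higher (56.6 and 77.3 FPKM summed), while 7 of 8 spermatocyte markers (3140 and 2765 FPKM) and 7 of 8 round spermatid markers (1728 and 1606 FPKM) were lower. Other germ cell markers leaned the other way, with 7 of 8 spermatogonial markers higher (83.8 and 99.9 FPKM summed) and 6 of 8 elongating spermatid markers higher and 1 lower (46992 and 49724 FPKM, or 33857 and 33361 FPKM without Prm1). The remaining elongating spermatid marker, Prm2, was listed at 0 in both groups without a test, so the sums hold nothing for it. In whole tissue, fewer cells of a type and less RNA per cell cannot be told apart. Epididymis markers had a summed level of 2.03 and 9.33 FPKM, with Crisp1, a secreted epididymal protein, at 0.0482 and 5.90 FPKM (q = 0.00848 per the authors' deposited table) and 4 of 7 markers listed at 0 in control.

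Sequences near the start sites are shown first, because p53 acts on its targets by binding DNA. The letters searched for were its 10-letter half-site consensus, which is its own reverse complement. A full site pairs 2 such half-sites. RefSeq promoter windows (build GRCm38.p6, the same assembly as mm10), from 250 bases before to 50 bases after a start site, were at hand for 42 members. Of these, 11 held at least 1 match to the half-site in any of their windows, or 26.2%. The share was 9.55% of the 27025 genes with such a window and 8.55% of the tested genes among them. The members include p53 targets by choice, and the share differed by role. It was 2 of 3 for p53 and its inhibitors, 3 of 6 for p53 target genes, and 0 for the 7 caspases and the 4 pro-survival genes. The other lists lay between. Cdkn1a was the single member with 2 matches separated by at most 13 bases, an arrangement found in 20 of all genes with a window (0.0740%). The stretches of 6 members are printed 5′ to 3′ on the gene's strand, with the match in capitals, for p53 itself, its main inhibitor, 3 of its known targets and the member with the largest difference between groups.
Cdkn1a (chr17:29090896-29090947, + strand): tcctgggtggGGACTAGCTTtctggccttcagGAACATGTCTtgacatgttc
Mdm2 (chr10:117710925-117710954, - strand): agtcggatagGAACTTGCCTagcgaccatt
Trp53 (chr11:69580274-69580303, + strand): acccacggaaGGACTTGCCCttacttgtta
Ccng1 (chr11:40755452-40755481, - strand): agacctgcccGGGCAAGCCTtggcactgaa
Bax (chr7:45467080-45467109, - strand): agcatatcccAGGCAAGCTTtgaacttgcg
Fasl (chr1:161788591-161788620, - strand): gacctcaggcAGGCAAGCCTggtttaccag
Counted from the start site of the window that holds them, the matches begin 73 and 51 bases before it in Cdkn1a, 186 in Mdm2, 75 in Trp53, 185 in Ccng1, 201 in Bax and 115 in Fasl. A gene can have further start sites, and only exact matches to the consensus were counted. A match is a description of the letters and not a binding site. Members with a match pointed both ways: 5 had a higher and 6 a lower value in Ptbp1_cKO, with a median difference of log2(FPKM + 1) of -0.09, and of the 30 without a match and with at least 0.1 FPKM, 23 had a higher and 7 a lower value (median 0.07).

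Levels of the members spanned about 4 orders of magnitude within each group. The most abundant were Bcl2l14, a BCL2 family member, at 281.4 and 254.8 FPKM, and Diablo, a mitochondrial antagonist of the inhibitors of apoptosis, at 258.2 and 241.4 FPKM. Gm49027 and Mir7647 overlap Diablo on the same strand, and how shared reads were divided is not known. Hrk, a BH3-only gene known from neurons, was at 0.0191 and 0.0231 FPKM, or about 22 and 24 fragments, and was not tested. Bcl2 and Casp4 were not tested either. The plot of levels by member shows the open and filled points of most genes close together, with Fasl as the widest gap.

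**Figure D1:**
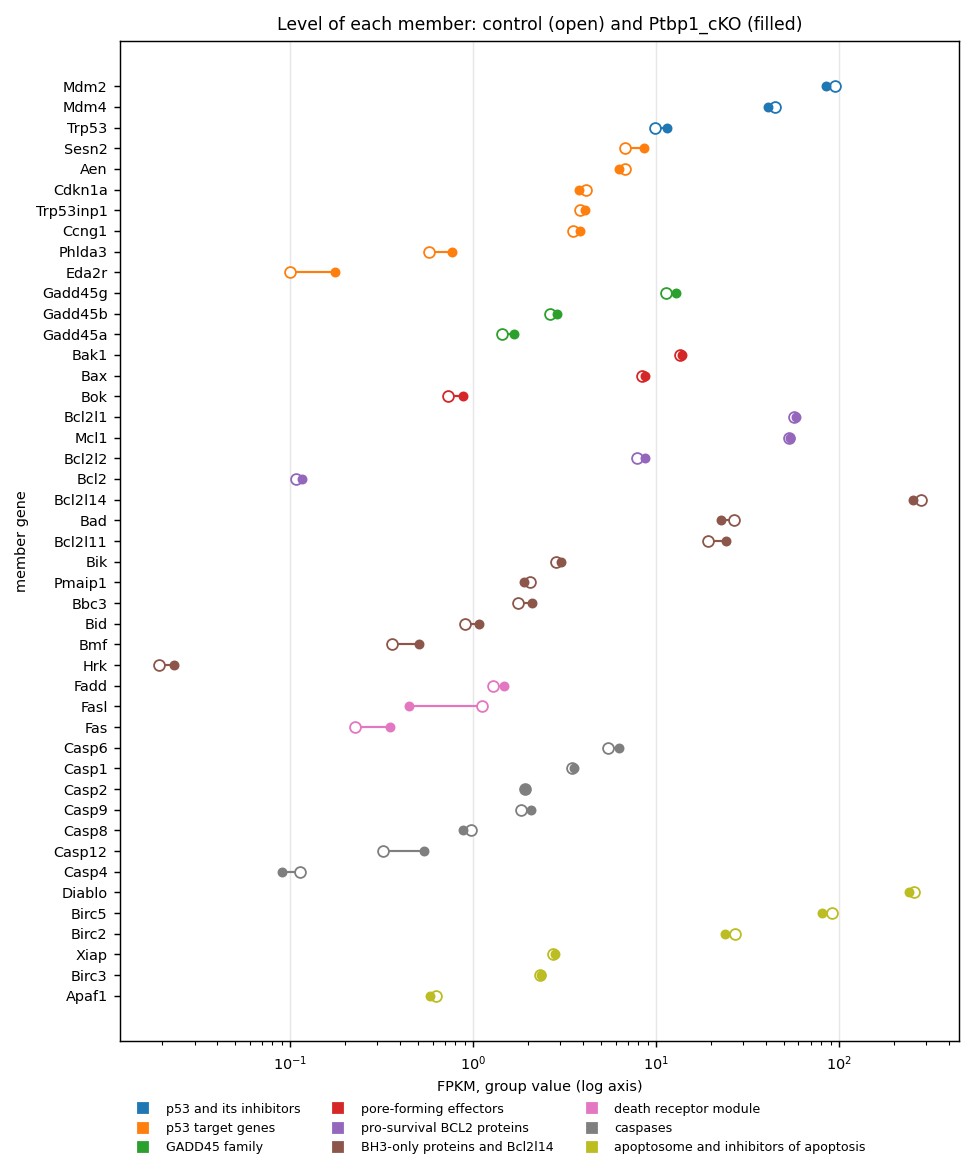
FPKM of each of the 45 members on a log axis, as the authors' group values: open circles are control, filled circles Ptbp1_cKO, colours the role of the gene, and lines join both values of a gene. Most pairs nearly coincide; Fasl, from 1.12 to 0.445 FPKM, is the widest gap, and the 4 genes whose values differ by over 1.5 times (Fasl, Casp12, Fas and Eda2r) all have a mean under 1 FPKM.

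Among p53 and its inhibitors, 0 of 3 genes passed the threshold, and the inhibitors stood far above p53 in transcript level. Trp53, which encodes p53, was at 9.81 FPKM in control and 11.43 FPKM in Ptbp1_cKO (log2 fold change 0.22, q = 0.683 per the authors' deposited table). Mdm2, the ubiquitin ligase that marks p53 for degradation, was at 94.6 and 84.7 FPKM (log2 fold change -0.16, q = 0.966 per the authors' deposited table). Mdm4, which binds and restrains p53, was at 44.6 and 40.9 FPKM (q = 0.988 per the authors' deposited table). The ratio of Mdm2 to Trp53 in FPKM was thus 9.65 in control and 7.41 in Ptbp1_cKO, a difference for which no test could be made from group values. An error scale for each gene was obtained by dividing the deposited log2 fold change by the deposited statistic, and the 95% interval from it ran from -0.23 to 0.67 for Trp53 and from -0.70 to 0.38 for Mdm2.

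Of 7 p53 target genes, 5 had a higher and 2 a lower value in Ptbp1_cKO, and none passed the threshold. Sesn2, a stress-induced inhibitor of mTORC1 signalling, was at 6.77 FPKM in control and 8.57 FPKM in Ptbp1_cKO, about 4917 and 5611 fragments. Its log2 fold change was 0.34 with an unadjusted p of 0.0052 and q = 0.181 per the authors' deposited table, the lowest q of all members, and the interval from the statistic was -0.08 to 0.76. A predicted gene overlaps Sesn2 on the same strand, and how the counting divided shared reads is not known. Cdkn1a, the p21 inhibitor of cyclin-dependent kinases and the target most used as a readout of p53, pointed the other way, with 4.13 and 3.78 FPKM (log2 fold change -0.13, interval -0.78 to 0.53, q = 0.999 per the authors' deposited table). Ccng1, a cyclin induced by p53, was at 3.53 and 3.81 FPKM, Trp53inp1 at 3.82 and 4.08 FPKM, and the exonuclease gene Aen at 6.73 and 6.25 FPKM, each within 10% of its control value. The scarcer targets differed more in ratio: Phlda3, an inhibitor of AKT, was at 0.575 and 0.765 FPKM, and Eda2r, a receptor of the TNF family, was at 0.1003 and 0.1754 FPKM (unadjusted p = 0.033, q = 0.461 per the authors' deposited table). Eda2r rested on about 102 and 160 fragments. It is X-linked, as is Xiap, and the median log2 fold change of the 586 tested X-linked genes with at least 1 FPKM in a group was -0.13. Eda2r lies below 1 FPKM and is thus outside that set, and a part of the X chromosome in its value was not tested.

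The 3 GADD45 genes, which encode small stress sensors of growth arrest and DNA damage, all had a slightly higher value, and none passed. Gadd45g was at 11.3 and 12.8 FPKM, Gadd45b at 2.63 and 2.89 FPKM and Gadd45a at 1.43 and 1.67 FPKM, with log2 fold changes of 0.18, 0.13 and 0.22 and q of at least 0.854 per the authors' deposited table. The deposited locus of Gadd45a was 19.3 times as long as the gene.

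In the BCL2 family, neither the pore-forming effectors nor the pro-survival members passed the threshold. Bak1, an effector on the mitochondrial surface, was at 13.49 and 13.86 FPKM, and Bax, the effector that moves there from the cytosol, at 8.34 and 8.69 FPKM. Their log2 fold changes were 0.04 and 0.06, both with q = 0.999 per the authors' deposited table. For Bax the statistic gave an interval of -4.10 to 4.22, so the table sets almost no limit on its change. The deposited locus was 12.4 times as long as the gene for Bax and 7.01 times for Bak1. Gm45808 overlaps Bax on the same strand and Ggnbp1 overlaps Bak1 on the opposite strand, and how shared reads were divided is not known. Bok, a relative of both, was at 0.728 and 0.882 FPKM.

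The pro-survival genes Bcl2l1 and Mcl1 were nearly level between groups. Bcl2l1, which encodes BCL-XL, was at 56.9 and 58.4 FPKM, with a log2 fold change of 0.04 per the authors' deposited table and an interval of -0.39 to 0.47. Mcl1 was at 52.99 and 53.59 FPKM, with an interval of -0.47 to 0.50. Bcl2l2, which encodes BCL-W, was at 7.83 and 8.67 FPKM, and a readthrough gene on the same strand shares its exons, so its value is uncertain. Bcl2 itself was at 0.108 and 0.116 FPKM and was not tested, so the transcript of BCL-XL was far more abundant per length than that of BCL2 in both groups. Summed effectors over summed pro-survival transcripts gave an FPKM ratio of 0.191 in control and 0.194 in Ptbp1_cKO, and Bax over Bcl2l1 gave 0.146 and 0.149. No test of these ratios could be made from group values, and the wide interval of Bax given above leaves both of them loosely bounded.

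Among the BH3-only genes and Bcl2l14, 8 of 9 were tested, none passed, and values lay on both sides of control. Bcl2l11, which encodes BIM and is an activator of BAX, was at 19.2 and 24.2 FPKM, a log2 fold change of 0.34 with q = 0.877 per the authors' deposited table. Bad, which binds BCL-XL, was at 26.8 and 22.7 FPKM, with a log2 fold change of -0.24 and q = 0.932 per the authors' deposited table. These abundant BH3-only transcripts thus had opposite signs, and their intervals, -0.56 to 1.23 and -0.96 to 0.49, overlapped widely. The BH3-only genes that p53 induces gave no common direction either: Bbc3, which encodes PUMA, was at 1.761 and 2.096 FPKM, and Pmaip1, which encodes NOXA, at 2.04 and 1.89 FPKM. Bik was at 2.83 and 3.01 FPKM, Bid, which caspase 8 cleaves, at 0.902 and 1.07 FPKM and Bmf at 0.360 and 0.503 FPKM. Bcl2l14 had a log2 fold change of -0.14 with q = 0.802 per the authors' deposited table. The summed BH3-only transcripts without Bcl2l14 were 0.457 times the pro-survival sum in control and 0.460 times in Ptbp1_cKO, a ratio that was likewise not tested.

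**Figure D2:**
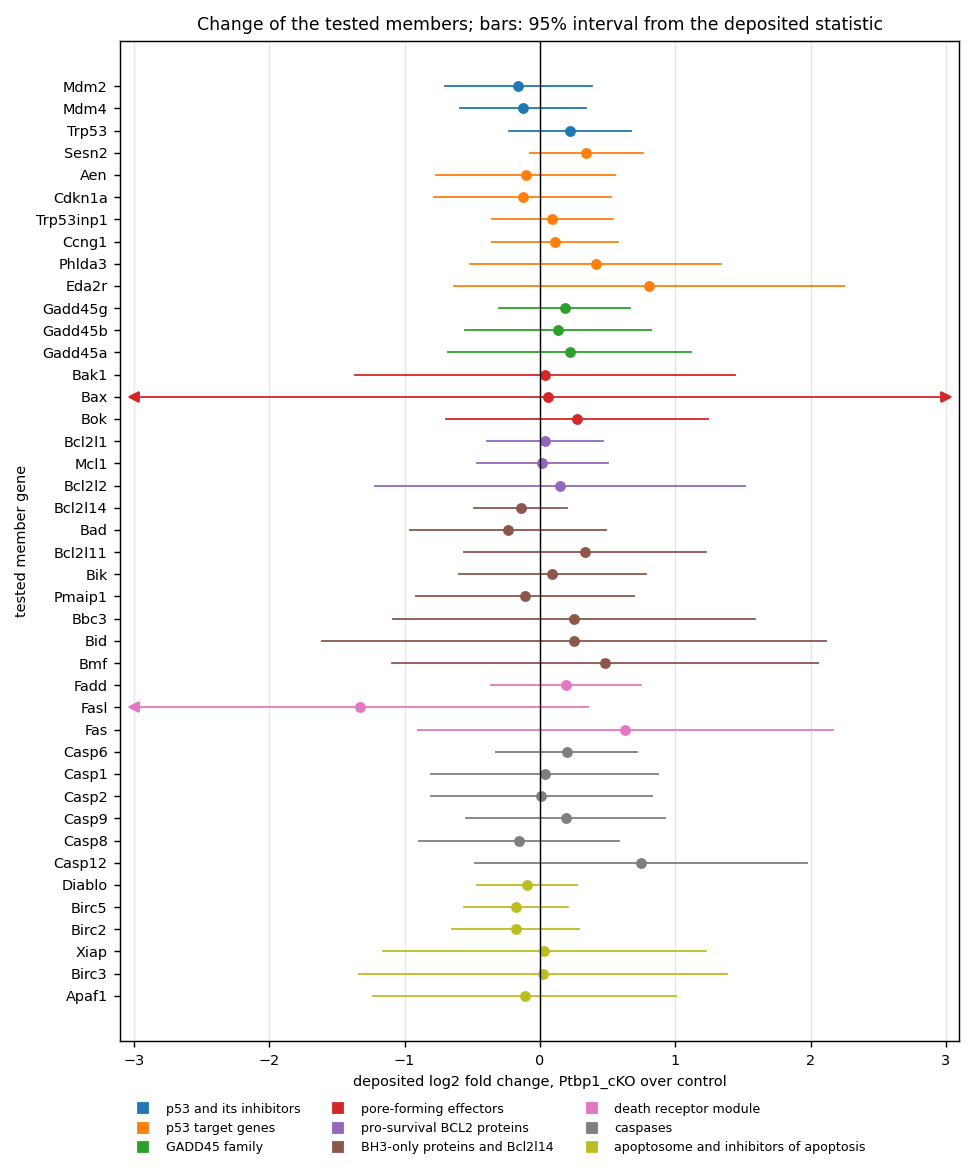
Log2 fold change (deposited; Ptbp1_cKO over control) for the 42 tested members (points) with the 95% interval from the deposited statistic (bars; arrows where a bar runs past the axis at -3 or 3), coloured by role. Every interval includes 0; that of Bcl2l14, -0.49 to 0.20, is the narrowest and that of Bax, -4.10 to 4.22, the widest.

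The death receptor genes held the largest difference of all members. Fasl, which encodes FAS ligand, was at 1.12 FPKM in control and 0.445 FPKM in Ptbp1_cKO, 2.51 times as high in control. Its log2 fold change was -1.33 with an unadjusted p of 0.00785 and q = 0.229 per the authors' deposited table, so it did not pass over all genes, and the interval from the statistic was -3.02 to 0.36. About 424 and 152 fragments stood behind these values if they came from the longest coding transcript, and no other gene overlaps Fasl (ENSMUSG00000000817.10, chr1:161780689-161788495, mm10). Its receptor Fas was at 0.227 and 0.351 FPKM, a log2 fold change of 0.63 with q = 0.718 per the authors' deposited table, on about 63 and 87 fragments. The adaptor Fadd was at 1.28 and 1.47 FPKM (q = 0.905 per the authors' deposited table). Ligand and receptor therefore had opposite signs, and neither passed. Spermatocyte and round spermatid markers were lower and leukocyte markers higher in the same libraries, as given above, and their part in the Fasl value was not tested.

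Of 7 caspases, 5 had a higher and 2 a lower value, and none passed the threshold. The initiators were low and close between groups, with Casp9, activated on the apoptosome, at 1.82 and 2.08 FPKM, Casp2 at 1.916 and 1.932 FPKM and Casp8, activated at death receptors, at 0.976 and 0.876 FPKM. Casp6, an executioner, was the most abundant caspase of the list, at 5.48 and 6.28 FPKM, with a log2 fold change of 0.20 and q = 0.865 per the authors' deposited table. The inflammatory group differed among themselves. Casp1, which processes interleukin 1 beta, was at 3.47 and 3.56 FPKM, and Casp4, a sensor of bacterial lipopolysaccharide, at 0.113 and 0.0901 FPKM, or about 30 and 21 fragments. Casp12, a relative linked to the endoplasmic reticulum, was at 0.322 and 0.541 FPKM, with a log2 fold change of 0.75, an unadjusted p of 0.0381 and q = 0.489 per the authors' deposited table, and an interval of -0.48 to 1.98. The 11 macrophage and leukocyte markers were all higher in Ptbp1_cKO, at 1.37 times their summed control level. Also higher were 6 of 6 endothelial, 5 of 6 myoid, 12 of 14 Sertoli and 7 of 8 spermatogonial markers. By contrast, 7 of 8 spermatocyte and 7 of 8 round spermatid markers were lower. The part of any of these cell types in the Casp12 value was not tested.

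The apoptosome and inhibitors of apoptosis had 4 lower and 2 higher values, and none passed. Birc5, which encodes survivin and also serves chromosome segregation in dividing cells, was at 91.5 and 81.0 FPKM, with a log2 fold change of -0.18 and q = 0.742 per the authors' deposited table. Birc2, which encodes the ubiquitin ligase cIAP1, was at 26.9 and 23.7 FPKM (log2 fold change -0.18, q = 0.771 per the authors' deposited table), and Diablo had a log2 fold change of -0.10. The lower values of this list were thus carried by abundant transcripts, with Apaf1, the scaffold of the apoptosome, at 0.625 and 0.577 FPKM as the scarce one. Xiap, the direct inhibitor of caspases, was at 2.74 and 2.80 FPKM, and Birc3, which encodes cIAP2, at 2.31 and 2.34 FPKM.

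The direction of the differences varied with the level of the genes, among the members and among all tested genes. Of the 13 members with a mean of at least 10 FPKM, 7 were lower in Ptbp1_cKO (Bcl2l14, Diablo, Mdm2, Birc5, Mdm4, Birc2 and Bad), and of all tested genes in that band 60.8% were lower. Of the 19 members between 1 and 10 FPKM, 16 were higher, the exceptions being Aen, Cdkn1a and Pmaip1, and of all tested genes in that band 57.8% were higher. Among the 12 members between 0.1 and 1 FPKM, 8 were higher and 4 differed by over 1.5 times, against 56.0% and 22.3% of tested genes. No member with a mean of at least 1 FPKM differed by over 1.5 times. Of all tested genes, 0.628% did so at 10 FPKM or more and 4.95% between 1 and 10 FPKM. With 13 and 19 members in these bands, a count of 0 is near those shares. The median difference of log2(FPKM + 1) was 0.05 over the 44 members with at least 0.1 FPKM in a group and 0.004 over all tested genes, and 31 of the 45 members (68.9%) had a higher value in Ptbp1_cKO, against 50.9% of all tested genes. The 12, the 44 and the 45 members include Bcl2 and Casp4, and the 45 also Hrk, none of them tested, whereas the shares of all genes cover tested genes only.

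**Figure D3:**
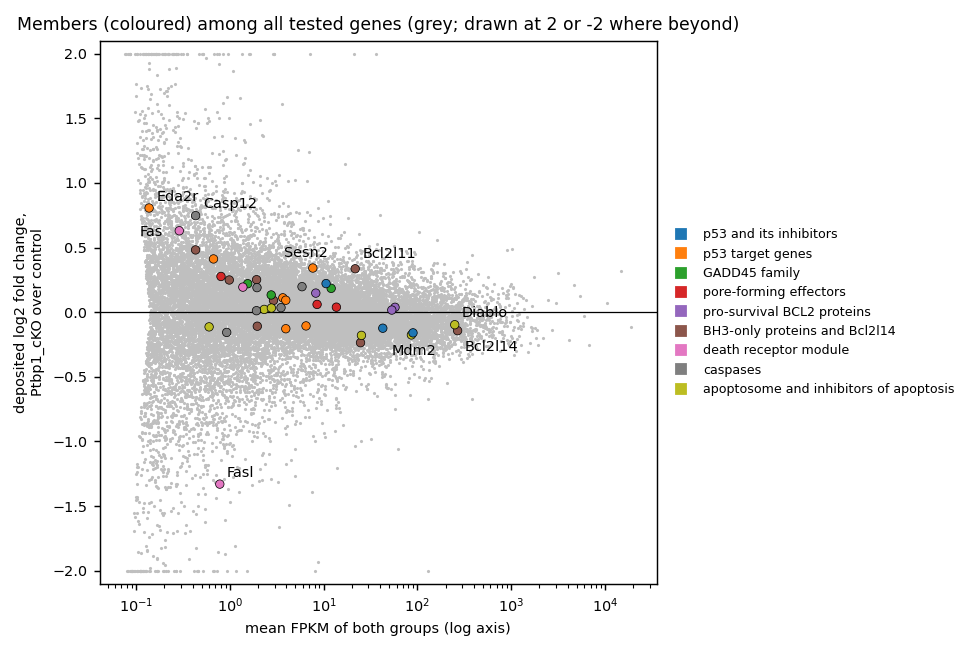
Log2 fold change (deposited; Ptbp1_cKO over control) against the mean FPKM of both groups (log axis) for the 42 tested members (coloured by role) and all tested genes above 0 in both groups (grey, drawn at 2 or -2 where beyond). The members lie within the cloud of grey points, which widens at low levels; Fasl at -1.33 and Eda2r at 0.81 are the members farthest from 0.

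Other genes of the same pathways, 62 in all, were taken from separate lists of apoptosis machinery (29 genes) and the p53 pathway (33 genes). Among the 54 tested, the authors' deposited table had 1 higher and 0 lower at a q under 0.05, beside backgrounds of 0.458% and 0.703%, and 4 had an unadjusted p under 0.05 (7.41%). Fdxr, a mitochondrial reductase that supports steroid synthesis and is a known p53 target, rose from 7.29 to 10.54 FPKM (log2 fold change 0.53, q = 0.0324 per the authors' deposited table). Its interval from the statistic was 0.03 to 1.04, and about 2782 and 3614 fragments lay behind it. Fdxr did not pass when the p came from the statistic under a normal distribution. Leydig cell markers, which include other steroid synthesis genes, were higher for 4 and lower for 4 of 8, with a median difference of log2(FPKM + 1) of -0.04, and their part in Fdxr was not tested. Their summed level was 1147 and 1420 FPKM with the peptide hormone gene Insl3, and 397.3 and 371.5 FPKM without it.

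Next in the p53 pathway came Pml, a nuclear body protein, at 0.818 and 1.21 FPKM (unadjusted p = 0.0065, q = 0.208 per the authors' deposited table), and the repair endonuclease gene Ercc5 at 4.79 and 5.98 FPKM (q = 0.453 per the authors' deposited table). The most abundant of that list, the phosphatase gene Ppm1d, which switches off p53 signalling, was at 165.8 and 156.2 FPKM. In the apoptosis machinery, Tnfrsf1a, the main receptor of TNF, was at 8.42 and 12.19 FPKM, with a log2 fold change of 0.53 and q = 0.0576 per the authors' deposited table, just outside the threshold. It was higher alongside the macrophage and leukocyte markers and most endothelial, myoid, Sertoli and spermatogonial markers. The part of these cell types in the Tnfrsf1a value was not tested. The testis cytochrome c gene Cyct was at 341.4 and 298.3 FPKM, the kinase gene Ripk1 at 6.65 and 4.89 FPKM and the mitochondrial channel gene Vdac2 at 663.4 and 613.3 FPKM, none with q under 0.58 per the authors' deposited table. The median difference of log2(FPKM + 1) over the 56 genes with at least 0.1 FPKM was 0.02.

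**Figure D4:**
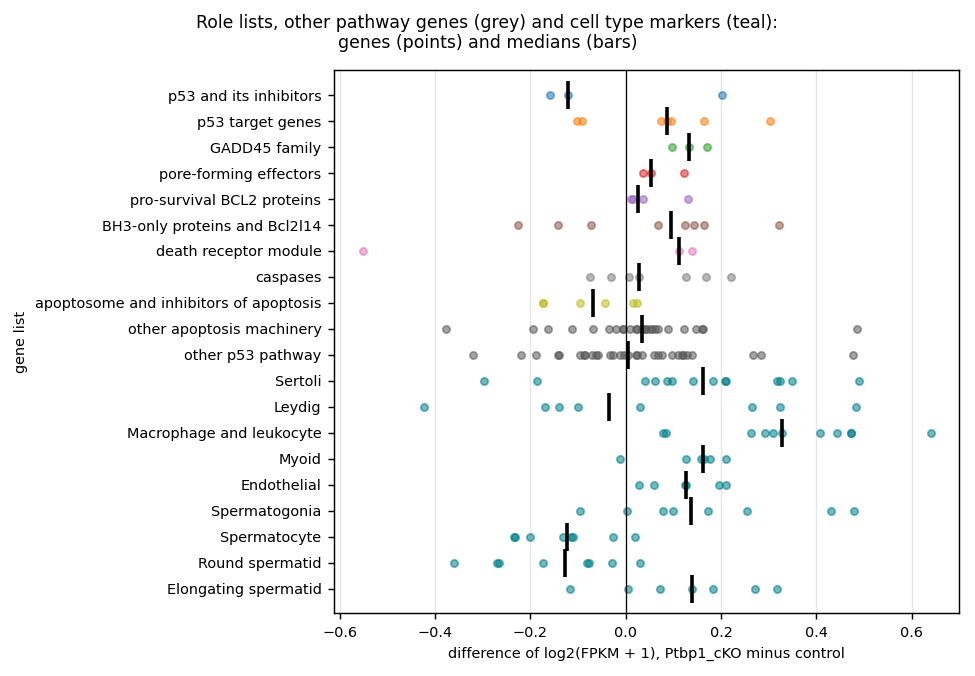
Difference of log2(FPKM + 1), Ptbp1_cKO minus control, for each gene with at least 0.1 FPKM in a group (points) and the median of each list (black bars): role lists of the members (colours), other pathway genes (grey) and cell type markers without the epididymis list (teal). Medians of the members' lists lie between -0.12 (p53 and its inhibitors) and 0.13 (GADD45 family), and that of the macrophage and leukocyte markers at 0.33.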

How the data were processed

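Polyadenylated RNA of whole testis was sequenced from stranded TruSeq libraries, 3 per group, per the labels' protocols. Tools listed by the submitters' processing notes are Trimmomatic 0.38, STAR 2.6.1d, Cufflinks and Cuffdiff, with build mm10 and no role or settings. For Cuffdiff's version, annotation and library scaling the sources used here give nothing. The authors deposited 1 FPKM value per group and gene, a log2 fold change, a test statistic (a signed score), a p-value and a q-value, per the file headers. Deposited values were used as they stand: q under 0.05 among genes with status OK. Benjamini-Hochberg adjustment of the deposited p gave the deposited q within 5.20e-07.

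Medians of log2(FPKM + 1), a scale that understates changes of low genes, used genes with at least 0.1 FPKM in a group. The 95% intervals take log2 fold change over statistic as a standard error, which no source states. Fragments per FPKM were read from steps among genes of a single exon of 1500 to 6000 bp, with 260 bp (control) and 266 bp (Ptbp1_cKO) deducted for fragment length, and multiplied by the longest coding transcript of GENCODE M21; they cover counting error only. A floor of 3 fragments over 1 kb in 1 library is at most 0.0153 FPKM. All 45 members matched that annotation, 2 in another version. With BLAST 2.17.0, no member had a near-identical copy elsewhere (95% identity over 80% of its longest coding transcript). Where a gene overlaps another, the split of reads is uncertain: 9 members overlap a gene on the same strand and 13 on the opposite strand, and whether counting used strand is not given.

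The members and lists were chosen with earlier results of these data known. Named genes were those with an unadjusted p under 0.05, the most abundant and most changed of each list, and all others described to account for every member. The adjustment and medians were tested on simulated data.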

Additional observations from a re-analysis of the deposited data

How the results depend on the processing

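The file holds no value per library, so no replicate could be left out. No paired analysis was possible because the columns are group values that carry no replicate number. The count of 0 members past the threshold, higher and lower, was the same at q under 0.10, with a normal p from the statistic and among genes with at least 1 FPKM. With the normal p only 0.0863% of all genes passed, so a count of 0 among 42 members says little there. The set with at least 1 FPKM held 34 members and left out Casp12 and Eda2r. At an unadjusted normal p under 0.05 the count was 0 of 42 members, against 1.34% of tested genes. Among the other pathway genes 1 was higher in the main count, 2 at q under 0.10, 0 with the normal p and 2 among genes with at least 1 FPKM, the added gene in that last case being Tnfrsf1a. The difference between deposited and normal p has a cause that was not tested. Pseudocount, filter and centring, which shifts differences by 0.004 on log2(FPKM + 1), left the direction of the role list medians in 35 of 36 recomputations, and of the medians over the members and over the other pathway genes in all; the exception was the death receptor list, at 0.11 over 3 genes and -0.22 over the 2 genes with at least 1 FPKM, where Fas drops out. By the error scale from the statistic, precision among tested members was lowest for Bax (2.12), Bid (0.95) and Fasl (0.86 on the log2 scale).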
